A study of Mus musculus with 13 samples.

Results

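Cd38, Bst1, Nt5e, Entpd1 and Nampt were followed through 13 droplet-based single-cell RNA-seq libraries of mouse liver, by cell type and by day of diet. They are 5 of the 55353 genes in the count tables. The set was chosen by measured values: the raw counts of these genes had been read in cells with at least 1500 unique molecular identifiers (UMIs), in cDC2, macrophages, NK, B and T cells and liver sinusoidal endothelial cells (LSEC) by day, and Cd38 had risen most in cDC2 late in the diet. Levels of the 5 genes in these 6 cell types are therefore given as a description, with no test of late against early libraries.

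The samples are livers of male C57BL/6J mice of 6 to 12 weeks without transgenes. Steady state mice (D0) received control chow, and the others received chow with 0.1% DDC, a dihydrocollidine compound that injures bile ducts, for 3, 5, 9, 19 or 25 days. Each of the 6 time points has 1 library of each of 2 isolation protocols, A and B, and a library is named here by both, as D9 A. The D19 B library is labelled D18 in its group field. Protocol A mixed sorted leukocytes, endothelial, epithelial, Pdpn-positive and retinoid-containing cells in equal parts, and protocol B combined cells of a stellate cell preparation with sorted dendritic cells, T cells and epithelial cells. The last library, STOP, was made with protocol B after 7 days on control chow that followed the long diet. D0, D3 and D5 are called early (6 libraries) and D9, D19 and D25 late (6 libraries). The labels do not say which mouse entered which library, so the spread between libraries need not be that between animals.

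All 5 proteins act in the making or breakdown of NAD or on extracellular nucleotides. Cd38 encodes the main NAD glycohydrolase of mammalian tissues, a surface enzyme that cleaves NAD into nicotinamide and ADP-ribose or cyclic ADP-ribose, and Bst1 (CD157) encodes its relative, made by a duplicated gene next to it. Entpd1 (CD39) removes phosphates from extracellular ATP and ADP, and Nt5e (CD73) turns the resulting AMP into adenosine, which dampens leukocyte responses. Nampt makes nicotinamide mononucleotide from nicotinamide, the limiting step by which cells rebuild NAD. So Cd38 and Bst1 are the members whose main substrate is NAD, and Nampt works in the opposite direction inside the cell. In liver, Cd38 is known from sinusoidal endothelium, Kupffer cells and lymphocytes.

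On GRCm38.p6 (RefSeq), Cd38 lies at chr5:43868809-43912374 and Bst1 just before it at chr5:43818880-43843468. Entpd1 lies at chr19:40612366-40741602, Nampt at chr12:32820335-32853369 and Nt5e at chr9:88327609-88372089. The start regions of Cd38 and Nampt (250 bases before to 50 after the annotated start, plus strand, RefSeq) are shown because Cd38 is the gene by which the set was chosen and Nampt had the most even levels over cell types. Capitals mark AGATAA, the core of a GATA site, in Cd38, and GGGCGG or its complement, an Sp1 box, in Nampt.
Cd38, chr5:43868559-43868858: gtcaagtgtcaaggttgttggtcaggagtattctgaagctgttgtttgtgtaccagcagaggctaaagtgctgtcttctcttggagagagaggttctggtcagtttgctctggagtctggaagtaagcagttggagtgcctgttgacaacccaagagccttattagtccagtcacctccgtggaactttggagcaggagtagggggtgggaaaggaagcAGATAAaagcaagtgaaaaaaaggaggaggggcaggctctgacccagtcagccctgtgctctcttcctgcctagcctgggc
Nampt, chr12:32820085-32820384: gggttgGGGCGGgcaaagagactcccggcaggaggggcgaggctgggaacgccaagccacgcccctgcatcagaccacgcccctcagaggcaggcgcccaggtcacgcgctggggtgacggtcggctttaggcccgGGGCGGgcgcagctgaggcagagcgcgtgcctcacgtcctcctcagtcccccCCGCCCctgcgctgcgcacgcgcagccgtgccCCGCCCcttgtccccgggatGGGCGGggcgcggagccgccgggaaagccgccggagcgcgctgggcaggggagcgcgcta
The Cd38 window has 1 CpG and a GC content of 51.7%, near the median of 52.7% over all 32851 windows. The Nampt window has 36 CpG and 76.3% GC. GGGCGG, searched on both strands, was found 5 times in Nampt, 4 times in Nt5e and in neither window of Entpd1 nor that of Cd38, and 35.7% of all windows hold it. Among these windows AGATAA was found in that of Cd38, and in 11.2% of all. TATAAA (13.6% of all windows) and the STAT motif TTCNNNGAA (8.30%) were in none of them. In Nt5e the 4 matches form 2 pairs that share bases, and those of Nampt are separate. Bst1 was not searched. These matches describe letters and say nothing of binding.

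Library totals were 29307190 to 108602421 UMIs, and the 95563 barcodes that reached 1500 UMIs are called cells here, of which 75.4% received a cell type from markers. A name such as cDC2-like rests on at least 3 markers of that type in a cluster, and the 5 genes and the pathway genes below took no part in clustering. Levels are UMIs of a gene in counts per 1e6 UMIs (CPM), summed within each cell type and library where at least 20 cells were found. Intervals are exact Poisson intervals at 95% and cover counting error only. D0 B stood apart, since most of its T cells, NK cells and dendritic cells formed clusters of their own. D0 A held only 24 cDC2-like cells. Any 2 libraries shared at most 49 cell barcodes, 0.519% or less of the smaller library. Doublets were kept, and an alternative without them is given at the end.

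RNA of endothelial genes was found in cells of other types in these libraries, and Cd38 was itself high in endothelial cells. Whether free RNA, doublets or the cells' own expression brought it was not tested. Barcodes of 10 to 500 UMIs, which are not cells, held 247 to 649 CPM of Cd38 in protocol A and 47.7 to 126 CPM in protocol B. 10 clusters carried at least 0.15 of the level of another lineage's markers and were left unnamed, a rule set after the clusters had been seen. The DC cluster left out in this way with cDC2 markers had 296 CPM of Cd38 and 3710 CPM of 7 endothelial genes together (Stab2, Clec4g, Oit3, Ptprb, Kdr, Cdh5 and Egfl7). Endothelial values are therefore given with most levels of Cd38 outside endothelium.

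Cd38 was highest in endothelium. The median over libraries was 769 CPM in LSEC-like cells (656 to 1126, n = 12) and 581 CPM in large-vessel endothelium-like cells (380 to 697, n = 9). B-like cells followed at 369 CPM (75.2 to 381, n = 7) and macrophage-like cells at 224 CPM (53.2 to 364, n = 12). pDC-like cells, which produce type I interferon, had 88.4 CPM (40.1 to 144, n = 8) and monocyte-like cells 58.7 CPM (4.04 to 216, n = 9). The other 9 types had medians between 16.5 CPM in cDC1-like cells and 57.0 CPM in stellate and fibroblast-like cells, with cDC2-like cells second from the bottom at 23.6 CPM. In stellate and fibroblast-like cells the RNA of the 7 endothelial genes, at the ratio seen in LSEC, would bring 43.4 of 53.5 CPM in D0 A, 47.4 of 57.0 CPM in D25 A and 10.2 of 18.5 CPM in D25 B. In hepatocyte-like cells it would bring 58.0 of 72.4 CPM in D0 A and 0.328 of 5.51 CPM in D25 B, and in mature DC-like cells 37.1 of 46.9 CPM in D9 B but 0 of 70.6 CPM in D19 B. Without cells that held a UMI of these 7 genes, mature DC-like cells of D9 B still had 43.8 CPM (9 UMIs, 25 cells). Stellate and fibroblast-like cells of D0 A then had 9.70 CPM. The range of each type overlapped that of its neighbour in this order, so the order of neighbours is not settled by their spread. From the top to the bottom, the medians of Cd38 differed 46.7-fold.

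The LSEC level overlapped between early and late libraries. It was 1044 CPM in D0 A, 656 in D0 B, 691 in D3 A, 730 in D3 B, 820 in D5 A and 806 in D5 B. Late values were 680 in D9 A, 1126 in D9 B, 922 in D19 A, 848 in D19 B, 732 in D25 A and 698 in D25 B. The highest values were in D9 B and D0 A, and the log2 fold change of late against early libraries was 0.13 (SE 0.16). After thinning each cell to 1500 UMIs, 61.3% to 81.1% of LSEC-like cells of the atlas held a Cd38 UMI.

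**Figure D1:**
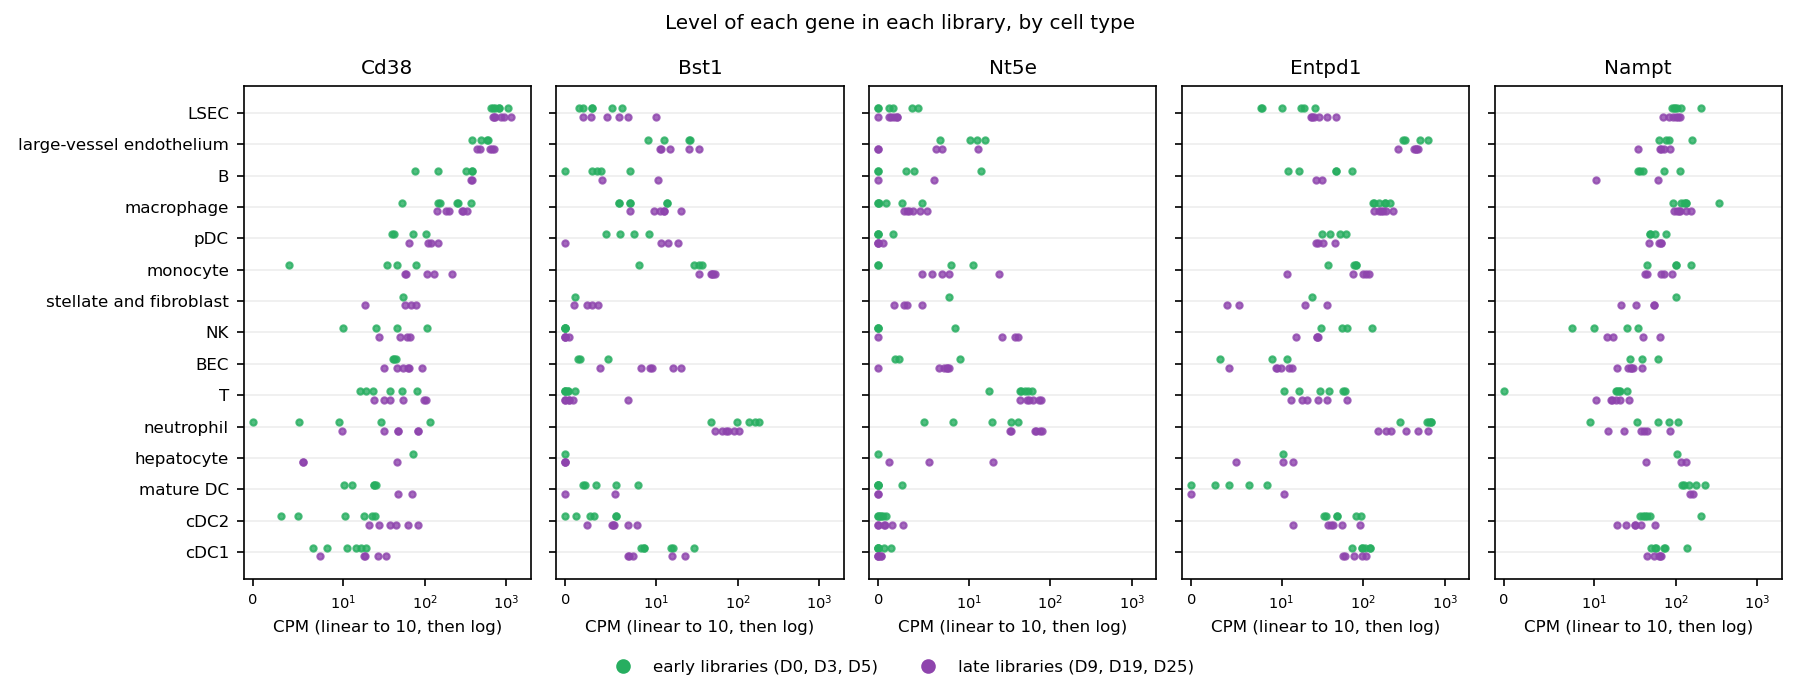
Level of Cd38, Bst1, Nt5e, Entpd1 and Nampt (x axis, CPM, linear up to 10 and logarithmic above) in each atlas library with at least 20 cells of a type (points, green for early and purple for late libraries), by cell type in the order of the Cd38 median. Cd38 and Entpd1 span a wide range over types, Bst1 is high in neutrophil- and monocyte-like cells, Nt5e in T- and neutrophil-like cells, and Nampt is present at 18.8 CPM or more by median in all types.

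cDC2 are the dendritic cells that take up antigen and prime CD4 T cells. In cDC2-like cells Cd38 was 4.98 CPM in D0 A (1 UMI), 3.11 in D0 B, 17.9 in D3 A, 10.4 in D3 B, 22.4 in D5 A and 24.8 in D5 B. In late libraries it was 37.6 CPM in D9 A, 44.9 in D9 B, 27.8 in D19 A, 83.2 in D19 B, 62.1 in D25 A and 20.8 in D25 B. The lowest late library, D25 B, lay below D5 A and D5 B, and the other late libraries lay above every early one. The median was 14.2 CPM early and 41.2 CPM late, a log2 fold change of 1.55 (SE 0.40, residual SD between libraries 1.06). Against D0 alone it was 3.61, and against D3 and D5 alone 1.22. Leaving out 1 library at a time gave 1.22 to 1.99, and within protocol A and protocol B it was 1.22 and 1.79.

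The share of cDC2-like cells with a Cd38 UMI, thinned to 1500 UMIs a cell, was 0% to 4.00% in early and 3.57% to 12.4% in late libraries. The highest share was in D19 B and the median over the 12 libraries was 3.74%, against 15.7% without thinning. Median UMIs per cDC2-like cell were 4994.5 to 15830 early and 6805 to 10623.5 late. In BEC-like cells, biliary epithelium taken as a non-hematopoietic scale for free RNA, the thinned share was 2.99% to 9.26% (median UMIs 10068 to 24774). BEC-like cells carried 2.05% to 6.55% of the LSEC level of the endothelial genes described above, more than most cDC2-like cells. Of the cDC2 shares only that of D19 B lay above their range. Without cells that held an endothelial UMI the BEC range was 0.826% to 5.88%, its top from 34 cells of D19 A. D19 B (12.3%) lay above this range, which pools libraries. D9 B (6.26%) lay only just above it, and BEC-like cells of D0 A also had 5.45% (275 cells). Shares other than that of D19 B are not told from background by this range. Within a library, the cDC2 share lay above the BEC share in D5 B (3.89% against 1.01%) and D9 A (5.75% against 2.20%). It also did in D9 B (6.26% against 0.826%), D19 B (12.3% against 2.72%) and D25 B (4.62% against 0.872%). It lay below in D3 B (1.23% against 1.25%) and D19 A (4.00% against 5.88%). Whether BEC make Cd38 themselves was not tested.

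The 7 endothelial genes summed to 12.8 to 69.7 CPM in early and 3.96 to 173 CPM in late cDC2-like cells, 0.0607% to 2.09% of the LSEC level of the same library. At the ratio seen in LSEC, this RNA would bring 0.424 to 15.3 CPM of Cd38. D19 B, with the highest Cd38, had 11.4 CPM of the endothelial genes, and D25 A, second highest, had 173 CPM. Barcodes of 10 to 500 UMIs in D19 B held 110 CPM of Cd38, of which 22.4 CPM is at the LSEC ratio. Free Cd38 RNA from cells other than endothelium is not measured by these genes, and its part was not tested. Without cells that held a UMI of any of the 7 genes, Cd38 was 2.89 to 24.7 CPM in the 5 early and 20.5 to 83.5 CPM in the 5 late libraries left, with a log2 fold change of 1.48 (SE 0.46). The 18 such cells of D25 A, too few to enter, held 30.4 CPM (4 UMIs) against 62.1 CPM in all its cDC2-like cells. With the mixed cluster kept among cDC2, Cd38 was 27.1 CPM in D0 A, 13.1 in D0 B, 125 in D3 A, 46.2 in D3 B, 118 in D5 A and 56.4 in D5 B, and 49.5 to 114 CPM in the late libraries, with the endothelial genes at 129 to 1659 CPM early and 278 to 1233 CPM late. The log2 fold change was then 0.43 (SE 0.34). The mixed cluster made up 3.16% to 30.5% of cDC2 in early and 5.06% to 26.1% in late libraries, with the highest shares in D3 A, D9 A and D5 A.

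**Figure D2:**
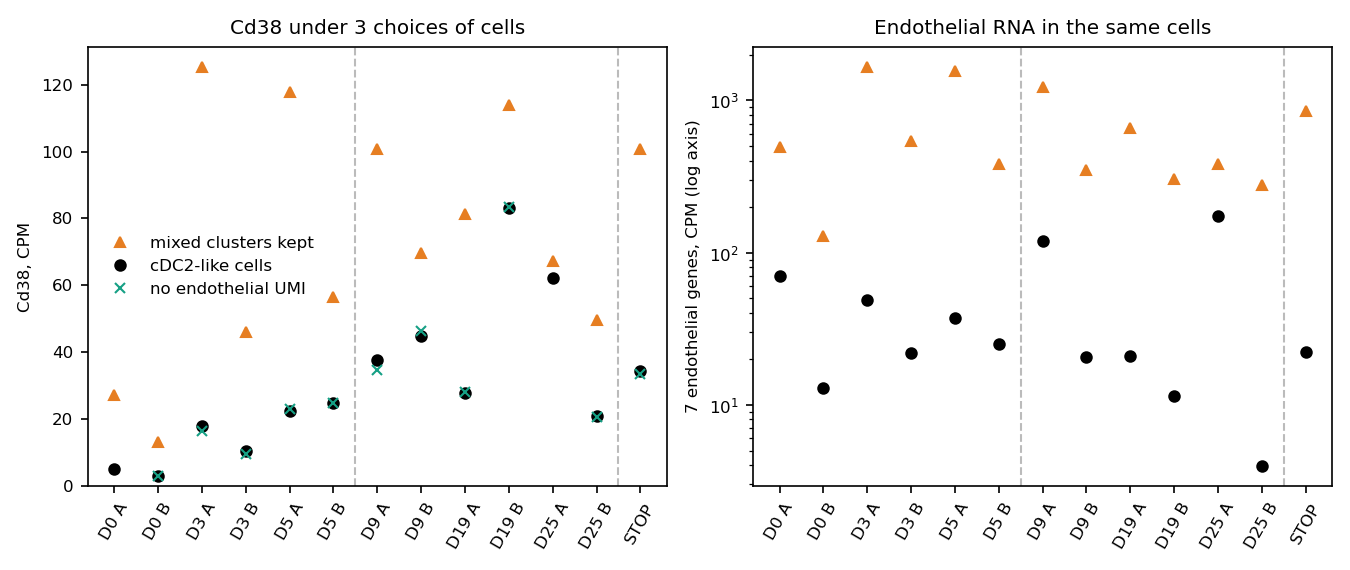
Left, Cd38 (CPM) in cDC2-like cells of each library (black circles), with the endothelium-mixed cluster kept (orange triangles) and without cells that hold an endothelial UMI (green crosses, where 20 cells are left). Right, summed CPM of 7 endothelial genes on a log axis in the same cells, with dashed lines between early, late and STOP libraries. Black circles lie between 3.11 CPM in D0 B and 83.2 CPM in D19 B, while triangles in D3 A and D5 A stand at 125 and 118 CPM.

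In the 5 clusters of cDC2-like cells with enough cells of D19 B, this library was above every early one. D9 B was above every early library in some of these clusters but not in all. D25 B lay below at least 1 early library in each of them where it had enough cells. These clusters were picked by holding D19 B, where Cd38 of cDC2-like cells was highest, so this is a description. A cluster without enough cells of D19 B had 22.8 CPM in D25 B, below 24.5 CPM in D5 A. Another had 42.2 CPM in D5 B and no late library with enough cells. In the cluster led by Tnfsf9, Tnip3 and Cd209a, Cd38 was 30.7 CPM in D5 A, 26.7 in D5 B, 41.2 in D9 A, 64.4 in D9 B, 97.9 in D19 B and 19.04 in D25 B. In the cluster led by Tnip3, Siglecg and Grk3 it was 60.01 CPM in D5 A and 31.3 in D5 B against 99.5 in D9 B and 150 in D19 B. Both clusters had their peak in D19 B. In the cluster led by Ccl17 and Mgl2, however, Cd38 was 17.4 CPM in D9 B and 18.3 in D25 B against 8.26 in D5 A and 18.6 in D5 B, with 36.4 CPM in D9 A, 57.0 in D19 B and 67.03 in D25 A. In the cluster led by Ffar2 it was 19.8 CPM in D3 A, 31.0 in D5 A and 39.9 in D5 B against 61.1 in D9 A, 38.5 in D9 B, 81.1 in D19 B and 26.2 in D25 B. In the cluster led by Cd209a and Bex6 it was 7.41 to 21.4 CPM in 4 early libraries and 41.5 CPM in D9 A, 29.6 in D9 B, 49.1 in D19 B and 13.9 in D25 B. The cluster led by Mgl2 and Cd209a that came to 91.5% from D0 B had 3.46 CPM (1.84 to 5.91). Its cells had 1.79 CPM in D0 B (648 cells) and 20.9 CPM in D5 B (24 cells), so the pooled value is mainly that of D0 B. A cluster of 973 cells led by Cd209e and Cd209d, which carried markers of DC precursors and stayed unnamed, had 93.3 CPM (86.9 to 100.1).

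Genes with enough counts in cDC2-like cells, Cd38 among them, gave the scale for this change. The numbers of genes that passed are no test of Cd38 or the other members. Of 9933 genes tested by edgeR's quasi-likelihood test, 0 (0%) passed an adjusted p of 0.05 for late against early libraries, 1382 had an unadjusted p under 0.05, and 152 (1.53%) passed in DESeq2. Over the 12 libraries the genes most like Cd38 by Pearson r of log2 CPM were Trak1 (0.95), Igf1r (0.94), Camk2g (0.91), Epb41 (0.90), Il18rap (0.90) and Epb41l4aos (0.90), among 4822 genes of at least 20 CPM. Over the means of the 15 cell types they were Slc38a6 (0.95), Cdh5 (0.94), Tgfbrap1 (0.94), Gapvd1 (0.93), Exoc5 (0.93) and Tpp1 (0.91). Cdh5 encodes the cadherin of endothelial junctions. These values are descriptions over points that share libraries and depth.

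Which cDC2-like cells held Cd38 was asked within libraries, by comparing cells with and without a Cd38 UMI in the 7 libraries with at least 20 of each. 12 of 9291 genes (0.129%) passed edgeR's test with the library as a block, 6 higher and 6 lower in Cd38-positive cells. Higher were Rell1 (log2 fold change 0.51, SE 0.10, adjusted p = 0.0198), Ifitm1 (0.41, SE 0.08, adjusted p = 0.0198), Tspan13 (0.31, SE 0.06, adjusted p = 0.0261), Dab2 (0.29, SE 0.06, adjusted p = 0.0229) and Zfand5 (0.23, SE 0.05, adjusted p = 0.0285). Ifitm1 is an interferon-induced membrane protein and Dab2 an endocytic adaptor. Without D5 A none of the higher genes passed, and 4 lower ones did, Lgals1 among them. Lower in all 7 libraries together were Lgals1 (log2 fold change -0.41, SE 0.07, adjusted p = 0.0160), which encodes galectin-1, Emp3 (-0.25, SE 0.05, adjusted p = 0.0198) and the actin gene Actb (-0.11, SE 0.02, adjusted p = 0.0256). Of the other 4, Cyp7b1, of low level, was higher, and the ribosomal RNA genes mt-Rnr1, mt-Rnr2 and CT010467.1 were lower. No marker of cDC2, mature DC, DC precursors, LSEC or any other list passed. Of the LSEC list 6 of 8 markers were tested and their median log2 fold change was 0.04. Cd38-positive cells were deeper, with medians of 8580 against 7464 UMIs in D5 B and 8286 against 7598.5 in D19 B, and the part of depth was not tested in this fit. Without cells that held an endothelial UMI 6 genes passed in 5 libraries, and of the 8 genes given with values only Zfand5 was among them (adjusted p = 0.0395). Rell1, Ifitm1 and Dab2 then had an edgeR adjusted p of 0.0547, and Tspan13, Lgals1, Emp3 and Actb 0.109 to 0.167. With positive cells defined after thinning 3 genes passed in 3 libraries, none of these 8.

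Macrophage-like cells held Cd38 at 364 CPM in D0 A, 53.2 in D0 B, 250 in D3 A, 144 in D3 B, 258 in D5 A and 154 in D5 B. Late values were 198 in D9 A, 184 in D9 B, 330 in D19 A, 287 in D19 B, 295 in D25 A and 140 in D25 B. The groups overlapped and the log2 fold change was 0.38 (SE 0.24). Without cells that held an endothelial UMI, Cd38 was 39.5 to 150 CPM early and 119 to 261 CPM late, and the groups still overlapped. Endothelial genes moved with the protocol here, at 620.7 to 1344 CPM in protocol A and 84.8 to 207 CPM in protocol B, and their part in the protocol difference was not tested. Kupffer-like cells, the resident macrophages of the sinusoid, had 318 to 445 CPM of Cd38 in 9 atlas libraries and 175 CPM in D0 B, with the endothelial genes at 457 to 2593 CPM. Other macrophage-like clusters had 43.6 to 166 CPM in D0 to D9 and 116 CPM in D25 B, but 362 CPM in D19 A, 299 in D19 B and 295 in D25 A. In these other clusters the endothelial genes were at 73.6 to 315 CPM in the latter 3 libraries and at 37.0 to 502 CPM in D0 to D9. Cells with markers of monocyte-derived macrophages (Gpnmb, Trem2, Spp1) had 68.9 to 227 CPM in the atlas, with the endothelial genes at 20.5 to 308 CPM.

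B-like cells, in which Cd38 is a classical surface marker, had 376 CPM in D0 A, 75.2 in D0 B, 318 in D3 A, 376 in D5 A and 146 in D5 B, and 369 in D9 A and 381 in D25 A. The protocols did not overlap, since D0 B and D5 B were below all libraries of protocol A. In protocol A these cells carried 16.9% to 43.3% of the LSEC level of the endothelial genes, against 1.57% and 2.13% in D5 B and D0 B. Cd38 beyond the LSEC ratio was 22.3 to 200 CPM in protocol A and 61.3 and 133 CPM in protocol B, with D0 A (200 CPM) and D5 A (161 CPM) above both libraries of protocol B. Without cells that held an endothelial UMI, Cd38 was 237 CPM in D0 A, 218 in D5 A and 165 in D9 A, against 63.0 in D0 B and 132 in D5 B. D3 A and D25 A then had too few cells. The part of endothelial RNA in these levels was not tested.

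NK-like cells had 105 CPM in D0 A, 9.96 in D0 B, 45.2 in D3 A and 25.5 in D5 A, and 27.2 in D9 A, 61.3 in D9 B, 66.6 in D19 B and 50.3 in D25 B, a log2 fold change of 0.46 (SE 0.63) with overlapping groups. D0 B rests on 2 UMIs and D5 A and D9 A on 3 each. The endothelial genes were at 4.98 to 235 CPM early and 3.53 to 417 CPM late, highest in D9 A, whose Cd38 equalled the 27.8 CPM at the LSEC ratio to within 1 CPM. Without cells that held an endothelial UMI, however, Cd38 in D9 A was 37.0 CPM, from 2 UMIs in 20 cells. T-like cells had 79.5 CPM in D0 A, 23.2 in D0 B, 37.9 in D3 A, 16.2 in D3 B, 52.1 in D5 A and 19.2 in D5 B. Their late values were 97.3 in D9 A, 37.3 in D9 B, 31.8 in D19 A, 53.3 in D19 B, 104 in D25 A and 23.5 in D25 B, a log2 fold change of 0.64 (SE 0.27). The endothelial genes were at 11.9 to 219 CPM early and 4.36 to 421 CPM late, highest in D25 A, and beyond the LSEC ratio Cd38 was 15.5 to 60.9 CPM early and 23.1 to 84.9 CPM late. Within protocol B, which holds nearly all T cells, D9 B, D19 B and D25 B were above the 3 early libraries, D25 B only just.

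**Figure D3:**
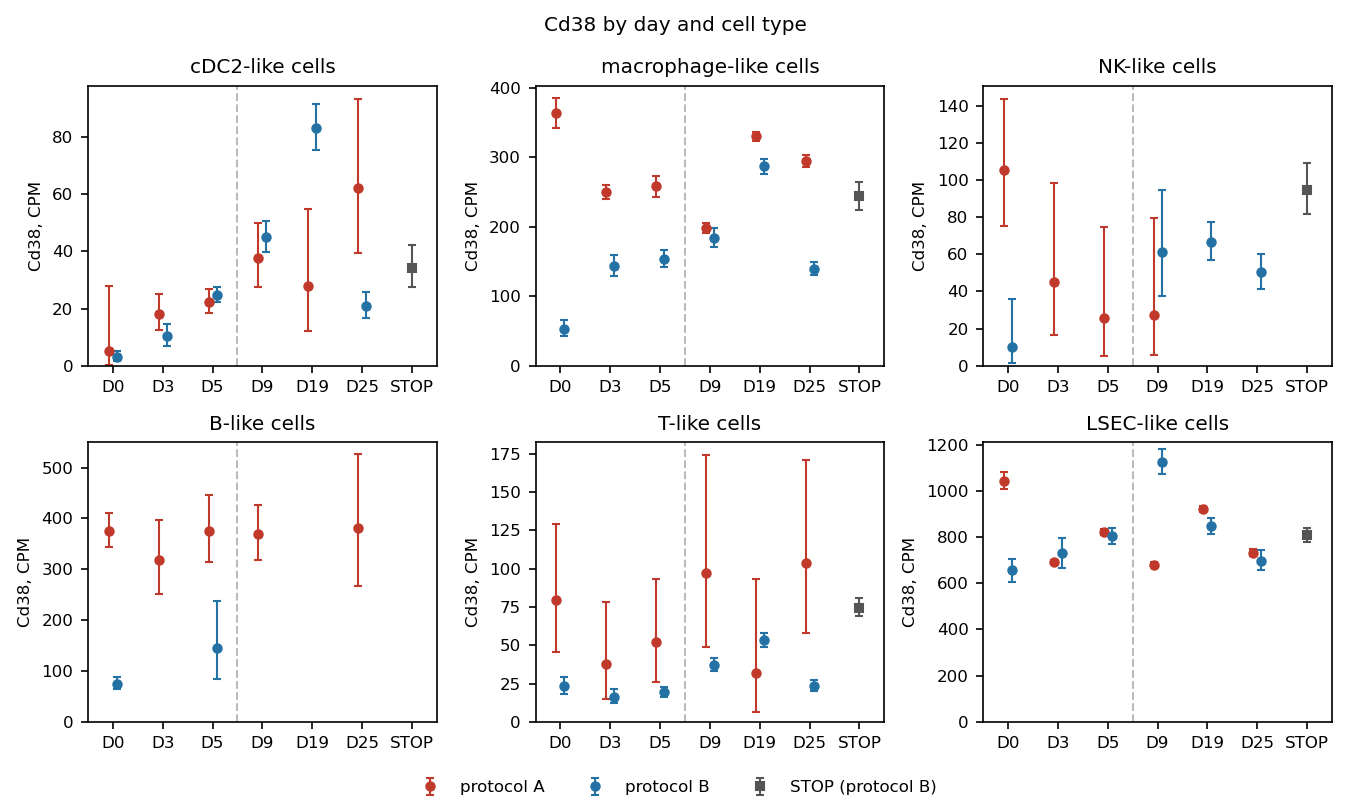
Cd38 (y axis, CPM, from 0) by day in the 6 cell types, with points for libraries of protocol A (red), protocol B (blue) and STOP (grey) and exact 95% Poisson intervals as bars; the dashed line parts early from late libraries. In cDC2-like cells both protocols are under 5 CPM at D0 and at 10.4 CPM or more from D3 on, while LSEC-like cells lie between 656 and 1126 CPM.

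The T-cell average hid clusters with very different levels. T-like clusters led by Dapl1 and Lef1, genes of naive T cells, had 1.39 to 7.40 CPM of Cd38 and at most 4.86 CPM of Entpd1. A cluster led by Klra5 and Gzmc, with granzyme and NK receptor genes, had 134 CPM of Cd38 (122 to 147). A cluster of 549 cells led by Gzmk and Pdcd1, 89.4% of them from STOP, had 146 CPM (129 to 164), and a cluster of 141 cells led by Penk, with Pdcd1 and Ctla4, 92.9% of them from D19 B, had 251 CPM (213 to 295). Among T-like clusters both of these were also the highest in Entpd1, at 211 CPM (191 to 233) and 228 CPM (191 to 269), and were low in Nt5e, at 10.03 and 3.33 CPM. Their endothelial genes were at 17.4 and 28.3 CPM. The Gzmk cluster had much the same levels in both libraries with enough of its cells, with 153 CPM of Cd38 and 187 CPM of Entpd1 in D19 B (47 cells) and 150 and 216 CPM in STOP (491 cells). The Penk cluster had enough cells in D19 B alone, so there the cluster and the library cannot be told apart.

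Nt5e was highest elsewhere among T-like cells. The cluster led by Cd163l1 and Il17a, which also carried Trdv4 and Il23r as gamma delta T cells of the IL-17 kind do, had 107 CPM (90.2 to 125) with 0.706 CPM of Entpd1. The cluster with Ctla4, Ikzf2 and Il2ra, genes of regulatory T cells, had 130 CPM (109 to 154) with 38.4 CPM of Entpd1, and a cluster of few UMIs led by Themis had 143 CPM (113 to 179). UMIs of both Nt5e and Entpd1, the pair that turns ATP into adenosine, were held by 29 of 3650 early, 78 of 5384 late and 36 of 2260 STOP T-like cells, where the products of the separate shares give 33.1, 98.0 and 51.5 cells. In other types it lay on either side of the product, above it in late NK-like cells (16 against 10.4) and early large-vessel endothelium-like cells (65 against 50.9) and below it in late macrophage-like (89 against 101) and late neutrophil-like cells (129 against 159). These shares were pooled over libraries of different depth and were not tested.

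**Figure D4:**
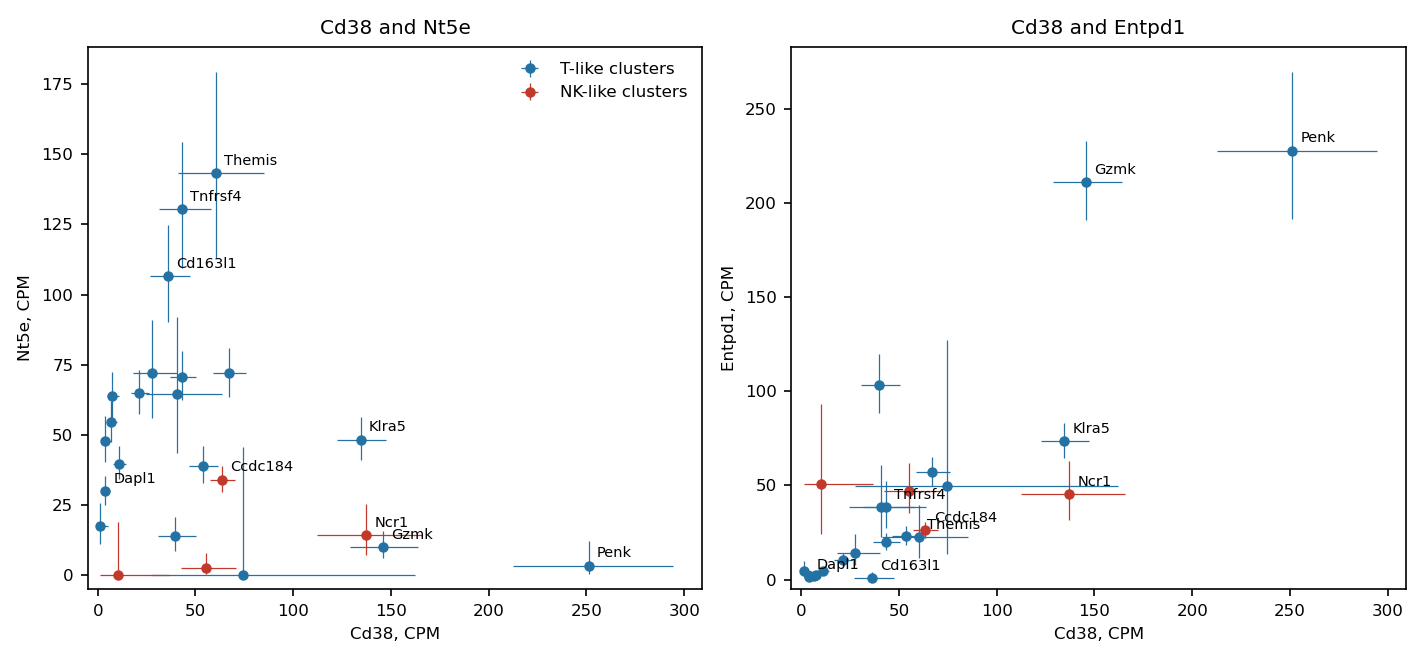
Cd38 (x axis, CPM) against Nt5e (left) and Entpd1 (right, CPM) in clusters of T-like (blue) and NK-like (red) cells, all 13 libraries together, with exact 95% Poisson intervals as bars and the leading gene of some clusters as label. The Gzmk and Penk clusters lie at 146 and 251 CPM of Cd38 with over 200 CPM of Entpd1, and the clusters highest in Nt5e, from 107 to 143 CPM, lie at 36.0 to 60.3 CPM of Cd38.

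Nt5e as a whole was highest in T-like cells, with a median of 52.4 CPM (17.5 to 76.0, n = 12), and in neutrophil-like cells, with 33.2 CPM (5.10 to 78.3, n = 11), and these ranges overlapped. All other types had medians of 7.27 CPM or less. In T-like cells late against early libraries gave a log2 fold change of 0.40 (SE 0.26), with D0 B lowest at 17.5 CPM. NK-like cells had Nt5e at 0 in D0 A, D0 B and D3 A and 8.51 CPM, 1 UMI, in D5 A, and 36.8 CPM in D9 B, 25.6 in D19 B and 40.1 in D25 B but 0 in D9 A. The 3 high libraries are all of protocol B, whereas D0 B is the only early one of that protocol, with 96 cells. Macrophage-like cells had at most 5.37 CPM, and the log2 fold change of 1.63 (SE 0.59) rests on 0 to 21 UMIs in each early library.

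Entpd1 was highest in neutrophil-like cells (median 472 CPM, 150 to 685, n = 11) and large-vessel endothelium-like cells (441 CPM, 268 to 629, n = 9), which did not differ beyond their spread. Macrophage-like cells came next at 170 CPM (131 to 234, n = 12), below all libraries of large-vessel endothelium and above all of cDC1-like cells (97.5 CPM, 56.4 to 123, n = 11). cDC2-like cells had 45.2 CPM (13.9 to 94.6). The lowest median, 4.22 CPM, was in mature DC-like cells. In large-vessel endothelium the cluster led by Bmp4 and Vwf had 601 CPM (587 to 616) and the cluster led by Cyp1a1 and Nrg1 153 CPM (144 to 163).

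LSEC-like cells had little Entpd1 at first and more later. The values were 7.74 CPM in D0 A, 7.80 in D0 B, 17.2 in D3 A, 10.2 in D3 B, 25.9 in D5 A and 18.7 in D5 B. Late values were 23.5 in D9 A, 24.8 in D9 B, 35.8 in D19 A, 29.2 in D19 B, 46.1 in D25 A and 22.9 in D25 B. Only D5 A overlapped the late group, and the log2 fold change was 1.04 (SE 0.30). These levels lay below the medians of neutrophil-like (472 CPM), large-vessel endothelium-like (441 CPM) and macrophage-like cells (170 CPM). The part of free Entpd1 RNA in them was not tested. By cluster, Entpd1 was 59.7 CPM (57.0 to 62.6) in LSEC-like cells led by Plppr5, Lhx6 and Wnt9b and 8.59 CPM (7.43 to 9.87) in those led by Galnt15 and Cyp4b1. A cluster led by Ednrb and Rasd1, whose atlas cells were to 97.0% from late libraries, had 39.0 CPM (36.2 to 42.0). In NK-like cells Entpd1 was lower late, from 63.2 CPM in D0 A, 54.8 in D0 B, 30.2 in D3 A and 128 in D5 A to 27.2 in D9 A, 27.6 in D9 B, 28.0 in D19 B and 14.99 in D25 B. D3 A and D9 A rest on 4 and 3 UMIs. These groups did not overlap (log2 fold change -1.39, SE 0.54), but without cells that held an endothelial UMI they did, since D3 A was then at 20.3 CPM, from 2 UMIs, below D9 B at 23.7 and D19 B at 27.9. In all, 0.766% of 4698 genes tested in NK-like cells passed edgeR's test. The share of all genes whose early and late libraries did not overlap was not counted, so the lack of overlap does not set Entpd1 apart. Of the early NK libraries only D0 B was of protocol B, and of the late ones only D9 A of protocol A, so stage and protocol are largely mixed here.

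Bst1 was highest by median in neutrophil- and monocyte-like cells. The median was 89.4 CPM in neutrophil-like cells (47.6 to 183, n = 11) and 36.9 CPM in monocyte-like cells (8.09 to 52.8, n = 9), whose ranges met. Large-vessel endothelium-like cells had 14.7 CPM and macrophage-like cells 10.5 CPM. NK-like cells held 1 UMI of Bst1 in 8 libraries and hepatocyte-like cells none in 4. Cd38 and Bst1, though neighbours in the genome, thus had their highest levels in different types: LSEC-like cells were first for Cd38 and had a median of 3.78 CPM of Bst1, and neutrophil-like cells were first for Bst1 and had 31.7 CPM of Cd38. In cDC2-like cells Bst1 was 0 to 5.64 CPM early and 2.35 to 7.92 CPM late.

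Nampt was the most even of the 5, with medians from 18.8 CPM in T-like cells to 148 CPM in mature DC-like cells, a 7.86-fold range. Mature DC, which migrate to lymph nodes through Ccr7, had 120 to 228 CPM in all 7 libraries with enough cells. Macrophage-like cells had 120 CPM (92.1 to 339), hepatocyte-like cells 109 CPM (43.5 to 135, n = 4) and LSEC-like cells 98.4 CPM (69.4 to 204). D0 A was the highest early library in cDC2-like (204 CPM), macrophage-like (339 CPM), LSEC-like (204 CPM) and cDC1-like cells (138 CPM), far from the others. In cDC2-like cells the other early libraries had 36.1 to 48.3 CPM and the late ones 18.9 to 54.8 CPM (log2 fold change -0.65, SE 0.32).

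In 6 cell types that the choice of genes had not used, late and early libraries were compared with a test. Of 27 pairs of gene and cell type with enough counts, 0 passed edgeR's quasi-likelihood test at an adjusted p of 0.05, 9 had an unadjusted p under 0.05, and 3 passed in DESeq2. Across all genes 0% passed in cDC1- and pDC-like cells, 0.347% in monocyte-like, 0.779% in neutrophil-like, 0.116% in large-vessel endothelium-like and 0.155% in BEC-like cells. In DESeq2 0.471% of all genes passed in cDC1-like, 0.284% in pDC-like, 1.84% in monocyte-like, 5.6% in neutrophil-like, 0.446% in large-vessel endothelium-like and 2.5% in BEC-like cells, and the 3 pairs that passed were in neutrophil- and BEC-like cells, the types with the highest shares. An unadjusted p under 0.05 was found for 6.79% (large-vessel endothelium-like) to 20.4% (neutrophil-like) of all genes in these 6 types.

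Neutrophil-like cells came nearest. Entpd1 was 605 CPM in D0 A, 642 in D0 B, 685 in D3 A, 681 in D5 A and 285 in D5 B, and 616 in D9 A, 217 in D9 B, 333 in D19 A, 150 in D19 B, 472 in D25 A and 190 in D25 B. The log2 fold change was -1.05 (SE 0.31, edgeR adjusted p = 0.0874). Late libraries were lower in the median, but D5 B and D9 A stood on the other side of their groups. Bst1 was 165, 98.8, 183, 138 and 47.6 CPM in the early libraries in the same order and 52.9 to 104 CPM late (log2 fold change -0.87, SE 0.27, edgeR adjusted p = 0.102). Nt5e had 40.2, 32.9, 8.31, 5.10 and 19.02 CPM early and 32.1 to 78.3 CPM late (log2 fold change 1.22, SE 0.44, edgeR adjusted p = 0.143). Early and late libraries overlapped for both genes. DESeq2 gave adjusted p = 0.0293 for Entpd1 and 0.0367 for Bst1, and edgeR's adjusted p was 0.0195 for Entpd1 without D9 A and 0.0357 for Bst1 without D5 B, where 5.18% and 4.33% of all genes passed.

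The 2 neutrophil-like clusters, described with no test, had different levels of the same 3 genes. The cluster led by Retnlg, with S100a8 and S100a9, had 649 CPM of Entpd1, 145 CPM of Bst1 and 33.1 CPM of Nt5e, and 72.6% of its atlas cells were from late libraries. The cluster led by Siglecf and Clec5a, with Il23a and Cxcl2, had 200.3 CPM of Entpd1, 56.1 CPM of Bst1 and 78.3 CPM of Nt5e, and 96.0% of its atlas cells were late. Neutrophil-like cells of the atlas were mostly late as a whole, with 676 early and 3366 late cells. The late share of the Retnlg cluster was below that of the whole, and that of the Siglecf cluster above it.

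**Figure D5:**
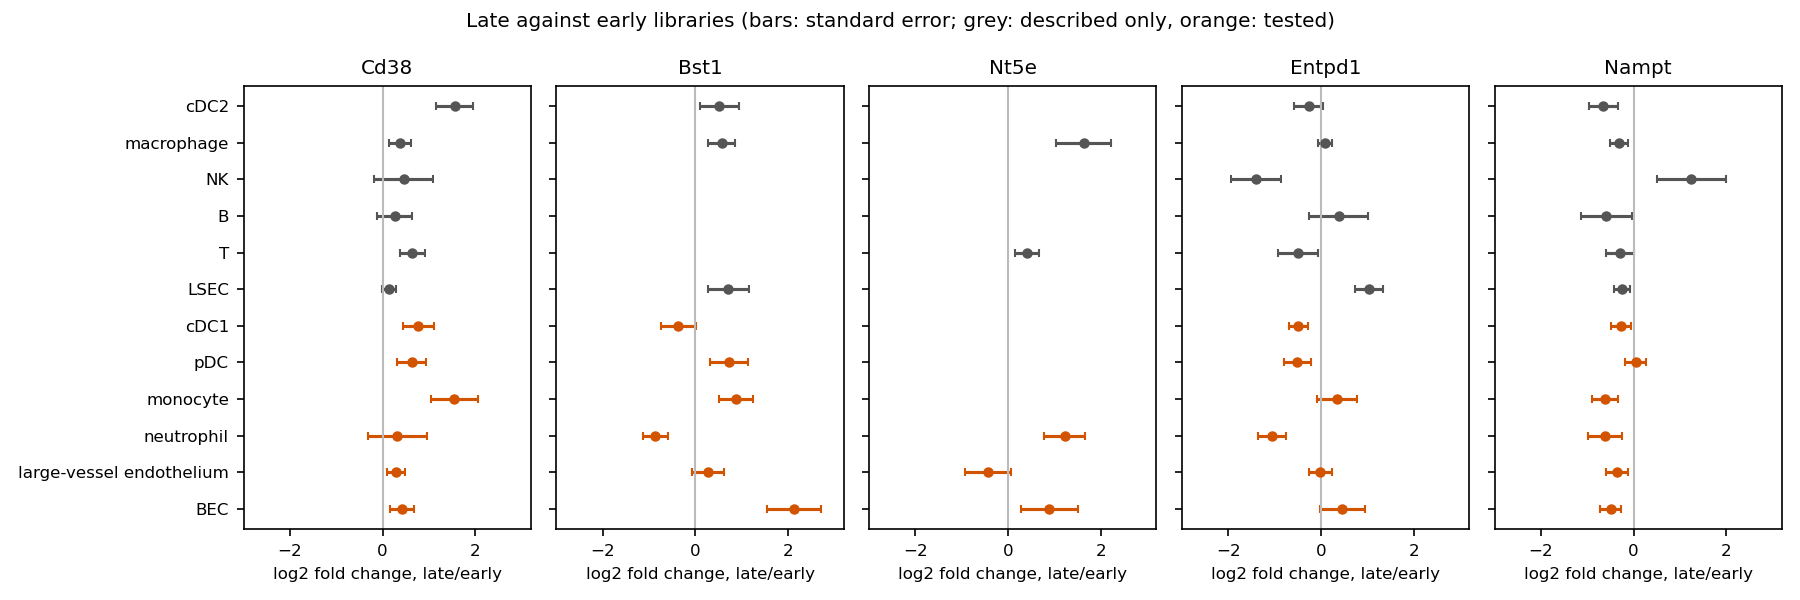
Log2 fold change of late against early libraries (x axis) for each gene and cell type with enough counts, from edgeR with the protocol as a term, with standard errors as bars; grey values are descriptions in the cell types used to choose the genes and orange values were tested. Cd38 is 1.55 in cDC2- and in monocyte-like cells, Entpd1 is 1.04 in LSEC-like and -1.05 in neutrophil-like cells, and no orange value passed an adjusted p of 0.05.

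In monocyte-like cells, circulating precursors of macrophages, Cd38 was 79.0 CPM in D0 A, 4.04 in D0 B, 34.7 in D5 A and 46.1 in D5 B, and 57.2 in D9 A, 130 in D9 B, 216 in D19 A, 107 in D25 A and 58.7 in D25 B. Only D0 A overlapped the late group. The log2 fold change was 1.55 (SE 0.51, edgeR adjusted p = 0.225), with 1 UMI in D0 B. Without a filter on low counts it was 1.63 and passed (edgeR adjusted p = 0.00156), as did 1.27% of all genes. D0 A also had the most endothelial RNA of these libraries, 647 CPM, and 55.1 CPM of Cd38 at the LSEC ratio, and D19 A the second least, 125 CPM. Bst1 had a log2 fold change of 0.87 (SE 0.36, edgeR adjusted p = 0.372) there. In cDC1-like cells Cd38 was 6.62 to 18.96 CPM early and 7.48 to 33.4 CPM late (log2 fold change 0.77, SE 0.33, edgeR adjusted p = 0.356), and in pDC-like cells 40.1 to 105 and 64.2 to 144 CPM (0.63, SE 0.31, edgeR adjusted p = 0.431). The endothelial genes were at 5.33 to 76.1 CPM early and 3.74 to 276 CPM late in cDC1-like and at 72.8 to 156 and 101 to 284 CPM in pDC-like cells.

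In BEC-like cells, which multiply during the diet as ducts expand, Bst1 was 1.57 CPM in D0 A, 1.39 in D3 B and 4.67 in D5 B, and 3.83 in D9 A, 8.38 in D9 B, 20.1 in D19 A, 9.32 in D19 B, 9.60 in D25 A and 16.3 in D25 B. Only D9 A overlapped the early group. The log2 fold change was 2.13 (SE 0.58, edgeR adjusted p = 0.169), DESeq2 gave an adjusted p of 0.00830, and edgeR gave 0.0488 without D5 B, where 3.09% of all genes passed. By cluster, Bst1 was 14.3 CPM (12.98 to 15.7) in one whose atlas cells were to 88.0% late and 1.25 CPM (0.729 to 2.00) in one with 15.3% late cells, 65.1% of them from D0 A. Neutrophil-like cells had a median of 89.4 CPM, and the part of free Bst1 RNA in BEC-like cells was not tested.

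Further genes of the pathway were followed in 5 lists of 87 genes: NAD synthesis and salvage, intracellular NAD consumers such as PARPs and sirtuins, ADP-ribose transfer and its targets, extracellular nucleotide breakdown, and adenosine and nucleotide receptors. In the 6 cell types used to choose the members, 249 pairs of gene and cell type were tested and 0 passed edgeR's test, while 37 had an unadjusted p under 0.05 and 6 passed in DESeq2. The background in edgeR was 0% of genes in cDC2-, B- and T-like cells, 0.690% in macrophage-like, 0.766% in NK-like and 0.0586% in LSEC-like cells. In DESeq2 it was 1.53% in cDC2-like, 4.4% in macrophage-like, 1.79% in NK-like, 0% in B-like, 0.226% in T-like and 1.93% in LSEC-like cells. In cDC2-like cells 51 pathway genes were tested and 5.88% had an unadjusted p under 0.05, against 13.9% of all genes. The shares in the other types were 25% (15 of 60 genes) against 16.1% of all genes in macrophage-like, 27.3% (6 of 22) against 16.6% in NK-like, 13.3% (6 of 45) against 8.43% in T-like, 13.3% (6 of 45) against 12.2% in LSEC-like and 3.85% (1 of 26) against 3.75% in B-like cells. These differences were not tested. The median log2 fold change in cDC2-like cells was 0.05 for 10 genes of NAD synthesis, -7.95e-05 for 20 intracellular consumers, -0.06 for 9 genes of ADP-ribose transfer, -0.45 for 5 of nucleotide breakdown and 0.30 for 7 receptors, against 0.004 for all genes.

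Art2b, which encodes a surface enzyme that transfers ADP-ribose from extracellular NAD to T-cell proteins, had the smallest p values among these genes in DESeq2. The log2 fold change was -1.97 (SE 0.36, edgeR adjusted p = 0.0801) in T-like and -1.77 (SE 0.44, edgeR adjusted p = 0.0746) in macrophage-like cells, and DESeq2 called both (adjusted p = 0.00222 and 0.00336). Art2a is a close relative of Art2b, and how well reads of the pair were told apart was not tested. Kmo, Parp14 and Enpp1 in macrophage-like cells and P2ry10 in NK-like cells were the other calls of DESeq2. In the remaining types Parp2, a DNA repair enzyme that uses NAD, was the only list gene that passed edgeR's test, in neutrophil-like cells (log2 fold change 2.47, SE 0.53, adjusted p = 0.0417), where 43 genes (0.779%) passed.

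After 7 days without DDC, the STOP library was set beside D19 B, which was made with the same protocol. With 1 library each there is no test of the condition, and intervals cover counting error. In cDC2-like cells Cd38 was 34.3 CPM (27.5 to 42.2) in STOP and 83.2 CPM (75.4 to 91.6) in D19 B, and 33.5 against 83.5 CPM without cells that held an endothelial UMI. STOP lay above D5 B (24.8 CPM) and D25 B (20.8 CPM). Cd38 was also lower in STOP in cDC1-like cells (16.7 against 33.4 CPM), in macrophage-like cells (244 against 287 CPM), in large-vessel endothelium-like cells (457 against 637 CPM) and in neutrophil-like cells (7.05 against 81.5 CPM, 4 and 39 UMIs). It was higher in STOP in T-like cells (74.6 against 53.3 CPM) and NK-like cells (94.6 against 66.6 CPM), whose endothelial genes were at 8.52 to 18.5 CPM in both libraries. In BEC-like cells it was 115 CPM in STOP and 63.2 CPM in D19 B, with the endothelial genes at 1297 and 525.8 CPM. Without cells that held an endothelial UMI the order of BEC-like cells turned, to 15.6 CPM (10.6 to 22.0) in STOP and 30.2 CPM (25.5 to 35.5) in D19 B. Without such cells, macrophage-like cells had 142 against 261 CPM, where the endothelial genes over all cells were at 340 CPM in STOP and 140 CPM in D19 B. For cDC1- and neutrophil-like cells the endothelial genes were at 7.55 to 52.8 CPM in both libraries. In LSEC-like cells the intervals overlapped (809 and 848 CPM).

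Neutrophil-like cells differed most. STOP had 218 CPM of Bst1 (182 to 260), 372 CPM of Entpd1 (323 to 425) and 113 CPM of Nampt (86.8 to 144), against 77.3, 150 and 14.6 CPM in D19 B, and Nt5e was alike at 68.7 and 64.8 CPM with overlapping intervals. Entpd1 in LSEC-like cells was 14.99 CPM (11.3 to 19.5) in STOP and 29.2 CPM (22.9 to 36.6) in D19 B. In T-like cells it was 65.0 CPM (59.6 to 70.7) against 36.3 CPM (32.7 to 40.3), with the Gzmk and Pdcd1 cluster nearly all in STOP. Nampt was higher in STOP in cDC2-, macrophage-, T-, LSEC-, neutrophil- and BEC-like cells. Without cells that held an endothelial UMI, the BEC intervals overlapped (25.7 to 41.9 CPM in STOP, 23.2 to 32.8 in D19 B). Those of macrophage-like cells then also met (118.3 to 159.6 CPM in STOP, 102.3 to 118.96 in D19 B). In all, 23 of 60 pairs of gene and cell type had separate intervals, 14 higher and 9 lower in STOP, and 16 of 50 without cells that held an endothelial UMI. The share of separate intervals over all genes was not counted, so these numbers do not set the members apart from other genes.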

How the data were processed

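The members and gene lists were chosen with earlier results of these data known. For each 10x Genomics 3′ library the authors deposited a matrix of raw counts (UMIs, genes by barcodes), neither normalized nor filtered for cells. The submitters' notes name kallisto and GRCm38, and no version is given in the sources used here. Libraries were grouped by their labels, and depth was 29307190 to 108602421 UMIs. Cells with at least 1500 UMIs were scaled to 10000, log-transformed and clustered (2000 variable genes, 25 neighbours, Leiden resolution 1.5, scanpy 1.11.5, igraph 0.11.9), giving 66 clusters of all cells, 38 of DC and 31 of T and NK cells. A marker counted if 10% of cells had it at 2-fold the other cells. The rule for mixed clusters, the 7 endothelial genes and both alternatives built on them were chosen after seeing the data. Sums per library and type (at least 20 cells) were fitted in edgeR 4.0.16 (R 4.3.3) by the quasi-likelihood test with TMM, filterByExpr, protocol as a term and Benjamini-Hochberg adjustment over all genes tested. Types outside the choice were tested with 3 early and 3 late libraries or more. SE is the log2 fold change divided by the root of F. In the late against early fits p-values measure the spread between libraries, which takes in that between the days of a stage. In the Cd38 split, with the library as a block, they measure the spread of differences within libraries. Alternatives were DESeq2 1.42.0, no filter, 3000 UMIs, Scrublet (6791 cells called, 7.11%), D0 or D3 and D5 alone, each protocol, each library left out and, for cDC2, thinning. The fits were tested on simulated data. Named genes are the members, list genes called (at most 4 a list and fit), the 6 largest called in each direction of the Cd38 split with a mean log2 CPM of 5 or more, and the 6 most like Cd38; DESeq2 calls named beside them, Art2b among them, were chosen after their values were seen. Cluster examples were likewise chosen afterwards.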

Additional observations from a re-analysis of the deposited data

Results flagged for a closer look

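In groups of 4 to 10 libraries with at least 20 UMIs of the gene, the gap between the most extreme library and its nearest neighbour was set against the whole range of the group (Dixon's ratio). 13 of 102 groups exceeded Dixon's 95% critical value. The rate of 1 in 20 by chance holds for independent groups of normal values. These groups share libraries and differ in depth, so the count cannot be set against that rate. The ratio concerns libraries within a group, not late against early. For the cell types used to choose the genes (cDC2, macrophage, NK, B, T and LSEC) it is a description and no test, since the choice used these levels. 6 of the 13 were D0 A as the highest early library. Nampt in D0 A was 204 CPM in cDC2-like cells against 48.3 in the next library (ratio 0.927, 6 libraries), 339 against 135 CPM in macrophage-like cells (0.827), 204 against 116 CPM in LSEC-like cells (0.770) and 138 against 74.2 CPM in cDC1-like cells (0.720). Cd38 in neutrophil-like cells of D0 A was 117 against 29.1 CPM (ratio 0.751). D0 A also had the most endothelial RNA of the neutrophil-like cells (880 CPM of the 7 genes, with 74.8 CPM of Cd38 at the LSEC ratio), and without cells that held an endothelial UMI its Cd38 was 50.7 CPM against 21.5 in D3 A. Nt5e in B-like cells of D0 A was 14.2 against 3.98 CPM (0.719). D0 A was lowest for Entpd1 in monocyte-like cells, at 37.6 CPM with the next at 78.0 CPM (0.890).

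Entpd1 was lowest in D25 B among late NK-like cells, at 14.99 CPM with the next at 27.2 CPM (ratio 0.940), and among late large-vessel endothelium-like cells, at 268 CPM with the next at 424 CPM (0.771). It was lowest in D5 B among early neutrophil-like cells, at 285 CPM with the next at 605 CPM (0.799). Nt5e was highest in D25 B among late monocyte-like cells, at 23.5 against 7.82 CPM (0.842), and 0 in D19 A among late BEC-like cells, with the next at 6.77 CPM (0.862), where 54 cells were measured. Nampt was 0 in D3 A among early T-like cells, with the next at 18.4 CPM (0.741) and 32 cells measured.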

How the results depend on the processing

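Cd38 in cDC2-like cells was higher late under every alternative run, but the set was chosen by this rise, so the direction adds no support. The size was not stable. The log2 fold change of Cd38 was 3.61 against D0 alone and 0.43 with the mixed clusters kept, and 1.22 to 1.99 with 1 library left out. Genes called in cDC2-like cells numbered 152 in DESeq2, 531 without a filter, 227 against D0 alone and 13 without cells that held an endothelial UMI. Leaving out 1 library gave 0 to 224, with 224 without D5 B, 39 without D5 A, 28 without D9 A and 26 without D25 B. Members called outside the 6 types numbered 3 in DESeq2, 4 without a filter, 1 against D0 alone and 0 to 2 with 1 library left out. Pathway genes called in the 6 types numbered 6, 9, 5 and 0 to 3 in the same order. Genes called for Cd38-positive cells numbered 75 without a filter, 3 after thinning, 6 without endothelial UMIs and 4 to 20 with 1 library left out (4 without D5 A, 20 without D25 B). The median share of cDC2-like cells with a Cd38 UMI was 15.7% without thinning. Signs turned, for values that did not pass the test, for Bst1 in cDC1-like cells against D3 and D5 alone (0.062), Nampt in pDC-like cells with mixed clusters (-0.037), Cd38 in neutrophil-like cells at 3000 UMIs (-0.18) and against D0 alone (-0.56), Bst1 (-0.28) and Entpd1 (0.71) in large-vessel endothelium-like cells against D0 alone, and Entpd1 in BEC-like cells against D3 and D5 alone (-0.25) and without endothelial UMIs (-0.012). mt-Rnr1 (0.12) and mt-Rnr2 (0.14), called lower in Cd38-positive cells, turned after thinning. With 1 library left out, log2 fold changes spanned 0 for Bst1 (-0.62 to 0.011 in cDC1-like, -0.0025 to 0.56 in large-vessel endothelium-like cells), Cd38 in neutrophil-like cells (-0.052 to 1.64), Entpd1 (-0.25 to 0.77 in BEC-like, -0.20 to 0.16 in large-vessel endothelium-like, -0.050 to 0.65 in monocyte-like cells) and Nampt in pDC-like cells (-0.027 to 0.16). The cause of these changes was not tested. Cell numbers set the depth: 24 to 1777 cDC2-like cells a library.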
